A study of Mus musculus with 6 samples.

Results

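The glucocorticoid receptor gene *Nr3c1* and 9 genes tied to its action were followed in control and senescent mouse adult fibroblasts (MAFs). The rows were taken from the count table by gene name, and the genes had been picked with earlier results of these data known. All 10 were found, each in 1 row, among the 43346 genes of the table. They are the receptor *Nr3c1* and its close relative *Nr3c2*, the hormone-activating enzyme *Hsd11b1*, the receptor co-chaperone *Fkbp5*, and 6 further genes known to be raised by glucocorticoids, *Tsc22d3*, *Sgk1*, *Klf9*, *Zbtb16*, *Dusp1* and *Errfi1*.

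Control MAFs were primary ear fibroblasts of adult female C57BL6/J mice that had been sham irradiated, and senescent MAFs were the same kind of cells after 20 Gy of X-rays and a further period in culture. Both groups were grown at 3% oxygen, were given 100 nM dexamethasone, a synthetic glucocorticoid, for 2 h, and were taken for RNA-seq 12 h later. There were 3 libraries per group. Since control cells had received the hormone as well, the values compare hormone-treated cells at a single time, and the response to dexamethasone itself was not measured here. The labels do not say whether the 3 samples of a group came from separate animals or cultures, so p-values describe the spread between these samples, which may be technical.

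Glucocorticoids cross the cell membrane and bind a receptor that is held ready in the cytoplasm by the HSP90 chaperones. FKBP5 lowers the affinity of this complex for hormone, and its exchange for FKBP4 goes with transport to the nucleus, where receptor dimers bind palindromic DNA elements. Among the best known genes raised in this way are *Fkbp5* itself and *Tsc22d3*, which limit the response, while cytokine and protease genes are held down. In cultured fibroblasts a short exposure also sets the phase of the circadian clock, which is the use it had in this study.

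Total counts lay between 50288454 and 82229553 per library. The label of the groups was checked with *Mki67*, *Top2a* and *Lmnb1*, which were lower in all senescent libraries, and *Cdkn1a* and *Cdkn2a*, which were higher. All 8 fibroblast markers examined were detected, with a summed level of 17571 to 19642 CPM (counts relative to library size, scaled between libraries by the TMM method) in control and 6492 to 7738 CPM in senescent libraries. Of these markers 3 were higher and 5 lower. The 5 chondrocyte markers fell from a sum of 4616 to 5137 CPM to 332 to 415 CPM. The 6 macrophage markers summed to 5.69 to 6.46 CPM in control and 14.1 to 16.6 CPM in senescent libraries, and the 4 endothelial markers to 2.43 to 2.83 and 7.38 to 8.08 CPM. Summed levels of 4 skeletal muscle markers (15.5 to 20.9 and 14.9 to 27.6 CPM), 5 keratinocyte markers (2.82 to 3.53 and 3.01 to 4.07 CPM), 5 Schwann cell and melanocyte markers (3.51 to 3.85 and 2.69 to 2.81 CPM) and 4 adipocyte markers (at most 0.341 CPM) were low throughout, and no marker was at 0 in every library. The part of these shifts in the differences described here was not tested. Senescent replicate 3 stood apart from the other senescent libraries, with a root mean square difference of 0.386 and 0.400 in log2 CPM against 0.258 between senescent replicates 1 and 2. Control libraries differed from each other by 0.337 to 0.367 on this measure, nearly as much. A chi-square over its degrees of freedom, which sets differences in counts against counting noise, was 2.98 to 12.0 between control libraries. For senescent replicate 3 it was 59.6 and 82.9 against senescent replicates 1 and 2, which gave 3.41 between themselves. The chi-square grows with depth.

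All 10 genes differed between control and senescent cells, and they did so in both directions. *Nr3c1*, *Nr3c2*, *Hsd11b1*, *Sgk1*, *Klf9*, *Dusp1* and *Errfi1* were higher in senescent cells, and *Fkbp5*, *Tsc22d3* and *Zbtb16* were lower. Differences were tested across 17589 genes with edgeR's quasi-likelihood test and Benjamini-Hochberg adjustment, and genes with an adjusted p under 0.05 were called. The background was high, since 70.3% of all tested genes were called, 36.2% as higher and 34.1% as lower. Over a 2-fold difference, 3 of the 10 genes were higher and 2 were lower, against 17.7% and 12.3% of all tested genes. The 3 control and the 3 senescent values did not overlap in any of the 10 genes, which was so in 75.4% of all tested genes. In bulk RNA, a change in the level per cell and a change in the share of cells that express a gene cannot be told apart.

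**Figure D1:**
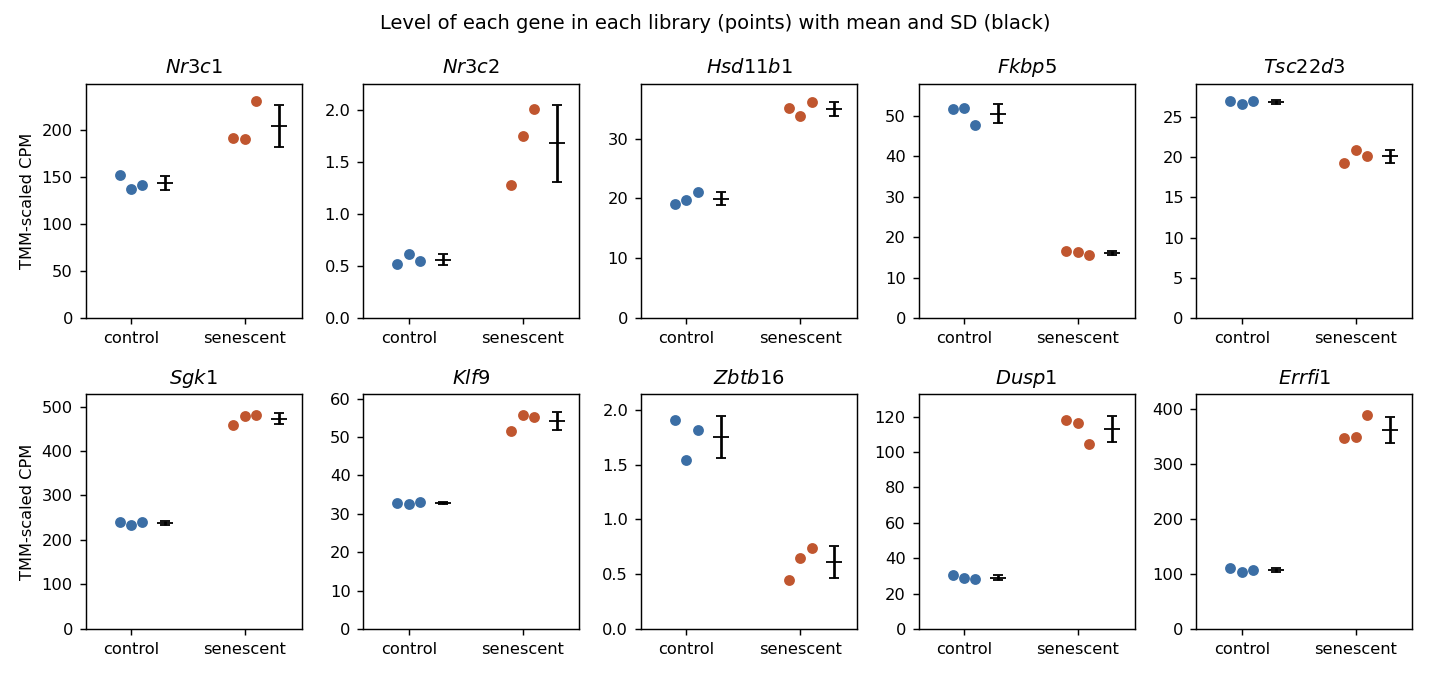
Level of each of the 10 genes in TMM-scaled CPM (vertical axes, from 0) in the 3 control (blue) and 3 senescent (orange) libraries, with the mean and SD of each group in black. The points of the groups do not overlap in any panel, with *Fkbp5*, *Tsc22d3* and *Zbtb16* lower and the other 7 genes higher in senescent cells.

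*Nr3c1* (ENSMUSG00000024431, chromosome 18 of mm10 from 39410545 to 39491301) encodes the receptor itself. It was at 152, 137 and 141 CPM in control replicates 1, 2 and 3 and at 192, 190.4 and 230.2 CPM in senescent replicates 1, 2 and 3. Every senescent library was above every control library, and senescent replicate 3 was the highest. The group means were 144 ± 7.65 and 204 ± 22.6 CPM (SD, n = 3 per group; log2 fold change 0.51, standard error 0.09, edgeR adjusted p = 0.00111). The difference in log2 level was 0.42 without senescent replicate 3. It was the smallest of the increases among the 10 genes, and 71.5% of all tested genes had a log2 fold change no larger than that of *Nr3c1*.

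*Nr3c2* (ENSMUSG00000031618, chromosome 8 from 76899442 to 77245012) encodes the mineralocorticoid receptor, which binds glucocorticoids with high affinity where they are not inactivated. It was near the lower end of detection, with counts of 26, 37 and 27 in the control libraries (replicates 1, 2 and 3) and of 71, 139 and 170 in the senescent ones. These counts correspond to means of 0.564 ± 0.0501 and 1.68 ± 0.372 CPM (SD, n = 3 per group), a 2.98-fold difference (log2 fold change 1.58, standard error 0.21, edgeR adjusted p = 0.000285). The senescent values spread more widely than those of the other genes except *Zbtb16*, with a coefficient of variation of 22.1%. In the GENCODE annotation, 247 exon bases of *Nr3c2* are shared with *Gm10649* on the opposite strand, and the strand setting of the counting is not given in the sources used here.

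Per length, the glucocorticoid receptor stayed the dominant of the pair in both groups. Levels between genes were compared as FPKM, which here is the scaled CPM divided by the gene length in kilobases that the table lists. The ratio of *Nr3c1* to *Nr3c2* in FPKM was 254, 193 and 223 in control replicates 1, 2 and 3 and 131, 94.7 and 99.7 in senescent replicates 1, 2 and 3. Each senescent ratio lay below each control ratio, the message of *Nr3c2* having risen by the larger factor. An exact two-sided permutation test of the log ratio gave p = 0.1, the smallest value that 3 libraries against 3 allow.

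*Hsd11b1* (ENSMUSG00000016194, chromosome 1 from 193221634 to 193264075) encodes the enzyme of the endoplasmic reticulum that turns inactive 11-keto steroids into active glucocorticoids. It was at 19.0, 19.7 and 21.1 CPM in control replicates 1, 2 and 3 and at 35.0, 33.7 and 36.0 CPM in senescent replicates 1, 2 and 3. The libraries of each group lay close together, and the increase of 1.75-fold was far outside their spread (log2 fold change 0.81, standard error 0.07, edgeR adjusted p = 2.23e-05). *H6pd*, which encodes the enzyme that supplies the reduced cofactor on which the reductase activity of HSD11B1 depends, went the other way, from 249 ± 7.31 to 109.6 ± 16.5 CPM (SD, n = 3 per group, log2 fold change -1.18, standard error 0.11). *Hsd11b2*, the gene of the enzyme that inactivates glucocorticoids, had 4, 2 and 3 counts in control libraries and 14, 23 and 25 counts in senescent libraries. Its level per length in senescent cells was 0.152 FPKM, beside 8.21 FPKM for *Hsd11b1*.

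Other genes of steroid supply and export were examined. Of 11 such genes listed, 7 were tested, 5 of them were higher and 2 lower, where 70.3% of all tested genes were called, with a median log2 fold change of 1.36 beside 0.01 for all tested genes. *Hsd11b2* and *Cyp21a1*, both among those higher, passed the filter through the senescent libraries and could only be called higher. *Abcb1a* and *Abcb1b*, which encode P-glycoprotein pumps that export dexamethasone among many other compounds, were higher in senescent cells. *Abcb1a* was at 5.13, 4.53 and 5.09 CPM in control and 37.7, 38.5 and 43.6 CPM in senescent replicates 1, 2 and 3, an 8.12-fold difference (log2 fold change 3.02, standard error 0.10, edgeR adjusted p = 1.05e-07). *Abcb1b* rose from 27.8 ± 1.11 to 71.3 ± 1.82 CPM (SD, n = 3 per group). These genes are close relatives, and the counting could have divided reads between them. *Srd5a1*, a steroid 5α-reductase gene, fell from 6.37 ± 0.373 to 3.38 ± 0.415 CPM. *Star* (log2 fold change 1.08) and *Cyp21a1* (1.83), which act in steroid synthesis, were higher at levels of at most 1.27 and 0.292 mean CPM, and *Serpina6*, *Cyp11a1*, *Cyp11b1* and *Cyp11b2* were below the filter for the test.

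The genes known best as glucocorticoid targets divided. *Fkbp5* (ENSMUSG00000024222, chromosome 17 from 28399095 to 28517524) showed the largest decrease of the 10 genes. It was at 51.7, 52.1 and 47.8 CPM in control replicates 1, 2 and 3 and at 16.5, 16.5 and 15.6 CPM in senescent replicates 1, 2 and 3. The senescent libraries were almost alike, and the control level was 3.12-fold higher (log2 fold change -1.64, standard error 0.07, edgeR adjusted p = 3.39e-07). 5.36% of all tested genes had a log2 fold change as low or lower.

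*Tsc22d3* (ENSMUSG00000031431, chromosome X from 140539528 to 140600659) encodes GILZ, a leucine zipper protein that binds and restrains inflammatory transcription factors. It was at 27.0, 26.6 and 27.0 CPM in control replicates 1, 2 and 3 and at 19.3, 20.8 and 20.2 CPM in senescent replicates 1, 2 and 3. The decrease was small beside that of *Fkbp5* but larger than the spread of either group (control 1.34-fold higher, log2 fold change -0.42, standard error 0.07, edgeR adjusted p = 0.000629).

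*Zbtb16* (ENSMUSG00000066687, chromosome 9 from 48654311 to 48835945) encodes the zinc finger repressor PLZF and is one of the genes most strongly raised by glucocorticoids in many human cells. It was low in these cells, with counts of 95, 92 and 89 in the control libraries (replicates 1, 2 and 3) and of 25, 51 and 62 in the senescent ones. Each senescent library held fewer counts than each control library, although senescent replicates 2 and 3 had the highest total counts of all. The scaled level fell from 1.75 ± 0.191 to 0.609 ± 0.145 CPM (SD, n = 3 per group, log2 fold change -1.49, standard error 0.20, edgeR adjusted p = 0.000267).

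*Sgk1* (ENSMUSG00000019970, chromosome 10 from 21882184 to 21999903) encodes a serum- and glucocorticoid-regulated kinase that controls ion channels and cell survival. It was at 240.4, 233 and 241 CPM in control replicates 1, 2 and 3 and at 458, 478 and 481 CPM in senescent replicates 1, 2 and 3. The libraries of a group lay close together, and the senescent mean was 1.98-fold higher (log2 fold change 0.99, standard error 0.05, edgeR adjusted p = 1.40e-06). *Klf9* (ENSMUSG00000033863, chromosome 19 from 23141226 to 23166911), a Krüppel-like transcription factor gene, was at 32.8, 32.5 and 33.1 CPM in control and at 51.6, 55.7 and 55.2 CPM in senescent replicates 1, 2 and 3. Here the control libraries were nearly identical and the senescent mean was 1.65-fold higher (log2 fold change 0.73, standard error 0.06, edgeR adjusted p = 1.59e-05).

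*Dusp1* and *Errfi1*, which encode feedback inhibitors of growth factor signaling, had the largest increases. *Dusp1* (ENSMUSG00000024190, chromosome 17 from 26505590 to 26508519) encodes a phosphatase of p38, JNK and ERK, and is induced by glucocorticoids as well as by stress and growth factors. It was at 30.5, 28.6 and 28.0 CPM in control replicates 1, 2 and 3 and at 118, 117 and 105 CPM in senescent replicates 1, 2 and 3. Senescent replicate 3 was the lowest of its group and still above every control library, with a mean difference of 3.89-fold (log2 fold change 1.96, standard error 0.07, edgeR adjusted p = 2.12e-07). In the GENCODE annotation 11 of its exon bases are shared with *Ergic1* on the opposite strand. *Errfi1* (ENSMUSG00000028967, chromosome 4 from 150853919 to 150868892) encodes MIG6, which binds and inhibits the EGF receptor family. It was at 110.2, 104 and 107 CPM in control and at 349, 349 and 389 CPM in senescent replicates 1, 2 and 3, a 3.39-fold difference (log2 fold change 1.76, standard error 0.07, edgeR adjusted p = 2.40e-07). Of all tested genes, 90.3% had a log2 fold change no larger than that of *Dusp1*, and 89.1% no larger than that of *Errfi1*.

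**Figure D2:**
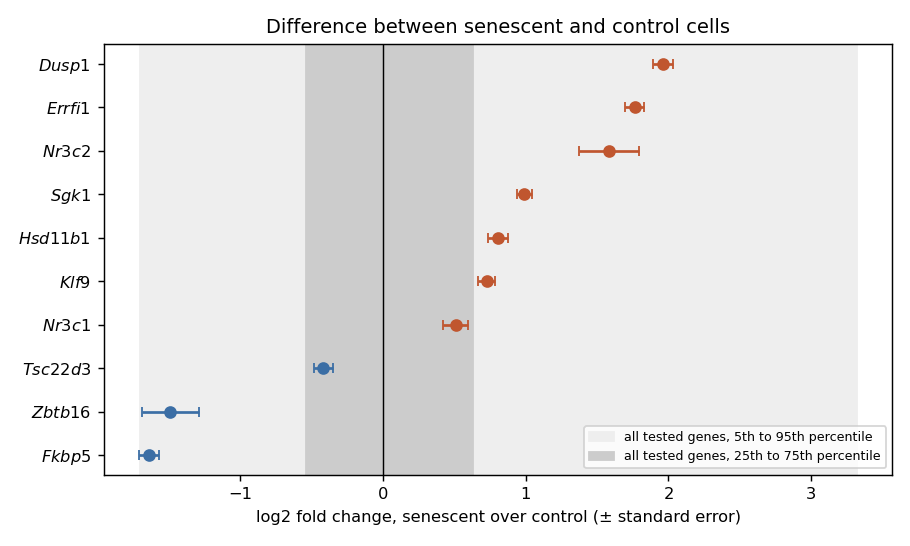
Log2 fold change of senescent over control cells for each gene (horizontal axis, points with standard errors, orange for higher and blue for lower in senescent cells), on bands that span the 5th to 95th (light grey) and 25th to 75th (dark grey) percentiles of all tested genes. *Nr3c1* and *Tsc22d3* lie within the middle band of -0.54 to 0.63, and all 10 genes lie within the wider band of -1.70 to 3.32.

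The order of the genes by level per length changed between the groups. In control cells *Sgk1* was highest at 48.6 FPKM, followed by *Errfi1* (29.8), *Nr3c1* (19.3), *Dusp1* (10.8), *Klf9* (10.0), *Fkbp5* (7.94), *Tsc22d3* (6.19), *Hsd11b1* (4.69), *Zbtb16* (0.344) and *Nr3c2* (0.0871). The libraries of no 2 neighbours in this order overlapped. In senescent cells *Errfi1* (101 FPKM) and *Sgk1* (96.4) overlapped and shared the top. *Dusp1* (41.9) passed *Nr3c1* (27.5) and was followed by *Klf9* (16.6), *Hsd11b1* (8.21), *Tsc22d3* (4.63), *Fkbp5* (2.55), *Nr3c2* (0.260) and *Zbtb16* (0.119). By these lengths *Fkbp5* moved from above to below both *Hsd11b1* and *Tsc22d3*, and *Zbtb16* changed places with *Nr3c2* at the bottom. The listed lengths are shorter than all GENCODE exon bases for *Fkbp5* (6363 against 9468), *Klf9* (3263 against 4815) and *Dusp1* (2697 against 3311). The order of close neighbours, such as *Fkbp5* and *Tsc22d3* in control cells, therefore depends on the length used.

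**Figure D3:**
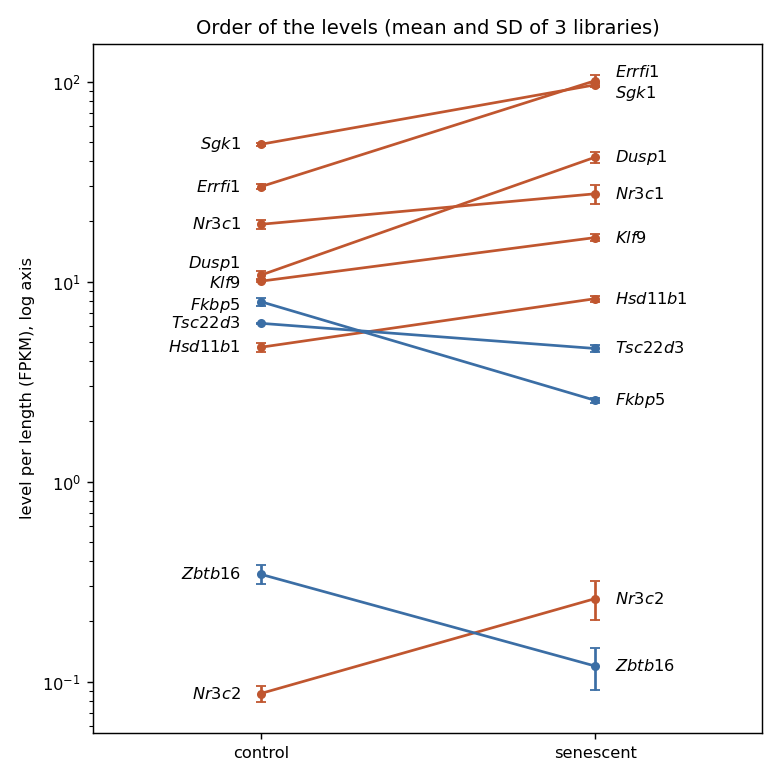
Mean level per length (FPKM, log axis) of the 10 genes in control (left) and senescent (right) cells, with the SD of 3 libraries, joined by orange lines for genes that were higher and blue lines for genes that were lower in senescent cells. The lines of *Fkbp5* and *Zbtb16* cross those of *Hsd11b1* and *Nr3c2*.

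Sequence just upstream of the start sites is shown for the genes in which it held a receptor element or an E-box, the element bound by the clock factor BMAL1, so that the letters can be read beside the direction each gene took. RefSeq windows of the assembly GRCm38.p6, the assembly mm10 names, run from 250 bases before to 50 bases after a start site. They were at hand for 8 of the 10 genes, in 16 windows, and not for *Nr3c1* and *Zbtb16*. On both strands the windows were searched for the receptor hexamer AGAACA, the full receptor palindrome, in which the hexamer is followed after 3 bases by its reverse complement TGTTCT, a looser core built in the same way from GNACA, the E-box CACGTG, the AP-1 element TGANTCA and the cyclic AMP element TGACGTCA. The palindrome contains the core and the hexamer on each strand, so these matches overlap. A match is a description of the letters and does not show binding.

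The full palindrome was present in 3 of 32851 windows of all genes (0.00913%), and 1 of these belongs to *Sgk1*. It lies at positions -189 to -175 from the start site at 21993890, 1 of 6 *Sgk1* windows at hand. The stretch chr10:21993640-21993889 (plus strand) is printed 5′ to 3′ with the palindrome and an E-box in capitals. The E-box, at -246 to -241, overlaps a further hexamer at -242 to -237.
Sgk1: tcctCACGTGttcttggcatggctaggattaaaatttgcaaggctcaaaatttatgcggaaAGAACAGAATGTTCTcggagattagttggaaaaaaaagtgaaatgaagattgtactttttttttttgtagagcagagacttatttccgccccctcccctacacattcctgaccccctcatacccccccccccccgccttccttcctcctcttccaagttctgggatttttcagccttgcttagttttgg

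*Tsc22d3*, which fell, had a hexamer at positions -185 to -180 from the start site at 140600522, and 19% of all windows hold the hexamer. Bases within annotated exons were left off, and the stretch chrX:140600660-140600772 (minus strand) is shown with the hexamer in capitals.
Tsc22d3: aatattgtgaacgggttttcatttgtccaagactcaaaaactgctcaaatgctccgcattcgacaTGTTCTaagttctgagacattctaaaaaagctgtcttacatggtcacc

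*Fkbp5* had none of the receptor letters in its window, which says only that they are not in these 300 bases. It held an E-box at -169 to -164 from the start site, as do 7.15% of all windows. The stretch chr17:28486150-28486399 (minus strand) has the E-box in capitals.
Fkbp5: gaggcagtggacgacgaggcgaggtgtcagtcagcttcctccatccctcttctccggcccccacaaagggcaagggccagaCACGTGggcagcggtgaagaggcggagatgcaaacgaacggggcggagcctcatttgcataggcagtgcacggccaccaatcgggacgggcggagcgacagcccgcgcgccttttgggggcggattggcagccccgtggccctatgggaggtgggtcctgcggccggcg

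*Dusp1*, which rose the most, also had no receptor letters. A cyclic AMP element (1.79% of all windows) lay at -143 to -136 and an E-box at -126 to -121 from its start site, and both are in capitals in chr17:26508520-26508722 (minus strand), without exon bases.
Dusp1: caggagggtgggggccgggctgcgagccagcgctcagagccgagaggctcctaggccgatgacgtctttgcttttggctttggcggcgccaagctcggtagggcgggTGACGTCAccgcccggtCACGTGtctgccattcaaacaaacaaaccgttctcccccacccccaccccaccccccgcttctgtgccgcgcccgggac

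An E-box was thus present in windows of *Sgk1* and *Dusp1*, which were higher, and of *Fkbp5*, which was lower in senescent cells. *Errfi1* had a cyclic AMP element at -51 to -44 from 1 of its 2 start sites, and *Klf9* had an AP-1 element (7.81% of all windows) at -89 to -83 from its start site. The windows of *Hsd11b1* and *Nr3c2* held none of the letters searched.

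Relatives of the members were examined to see whether they moved with them. *Sgk1* rose while its relative *Sgk3* fell, from 22.4 ± 0.717 to 14.9 ± 2.00 CPM (log2 fold change -0.59, SD, n = 3 per group). *Sgk2* was lower too, from 0.415 ± 0.0865 to 0.142 ± 0.0370 CPM. It had 10, 11 and 9 counts in senescent libraries and passed the filter through the control libraries, so it could only be called lower. The ratio of *Sgk1* to *Sgk3* in FPKM was 30.3, 31.1 and 31.9 in control and 98.0, 101 and 81.8 in senescent replicates 1, 2 and 3. The groups did not overlap (exact two-sided permutation p = 0.1, the smallest that 3 libraries against 3 allow). In the TSC22 family, *Tsc22d1* fell from 392 ± 4.81 to 258 ± 9.17 CPM and *Tsc22d4* from 53.1 ± 4.76 to 25.4 ± 5.78 CPM, as *Tsc22d3* did, while *Tsc22d2* was not called (log2 fold change 0.13, edgeR adjusted p = 0.364). *Tsc22d1* fell by the larger factor, and its ratio to *Tsc22d3* went from 7.05 ± 0.130 to 6.19 ± 0.0210 (SD, n = 3 per group).

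The dual-specificity phosphatases related to *Dusp1* rose with it. *Dusp4* went from 1.57 ± 0.0681 to 21.9 ± 1.58 CPM (log2 fold change 3.80) and *Dusp5* from 7.80 ± 0.591 to 38.5 ± 2.36 CPM (log2 fold change 2.30, SD, n = 3 per group). *Dusp2* had 3, 1 and 1 counts in control and 67, 53 and 62 counts in senescent libraries, and so could only be called higher. *Klf13*, a close relative of *Klf9*, rose by less, from 98.8 ± 0.686 to 129 ± 4.45 CPM. Of the 12 relatives listed, 10 were tested, 5 were higher and 4 lower, beside 36.2% and 34.1% of all tested genes, with a median log2 fold change of 0.19 beside 0.01 for all tested genes.

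The chaperones that fold the receptor were examined next. Of 17 genes, all tested, 9 were higher, 1 was lower and 7 were not called, with a median log2 fold change of 0.29 and 58.8% called, below the 70.3% of all tested genes. *Hspa4* (log2 fold change 1.00), *Hsp90aa1* (0.86), *Bag1* (0.49) and *Hspa8* (0.41) had the smallest p-values. *Hsp90aa1*, the stress-inducible HSP90 gene, was at 513, 479 and 464 CPM in control and 848, 817 and 976 CPM in senescent replicates 1, 2 and 3. The constitutive *Hsp90ab1*, the more abundant of the pair, was at 2014 ± 28.8 CPM and 1906 ± 43.5 CPM and was not called (SD, n = 3 per group, edgeR adjusted p = 0.183).

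*Fkbp4*, the co-chaperone that takes the place of FKBP5 when hormone binds, was the 1 chaperone gene that fell. It was at 95.8, 103 and 104 CPM in control and at 62.5, 63.5 and 49.0 CPM in senescent replicates 1, 2 and 3 (log2 fold change -0.79, standard error 0.10, edgeR adjusted p = 0.000244). Because *Fkbp5* fell further, the ratio of *Fkbp4* to *Fkbp5* in FPKM was higher in senescent cells. It was 4.22, 4.49 and 4.93 in control and 8.62, 8.79 and 7.14 in senescent replicates 1, 2 and 3, with no overlap (exact two-sided permutation p = 0.1, the smallest possible).

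**Figure D4:**
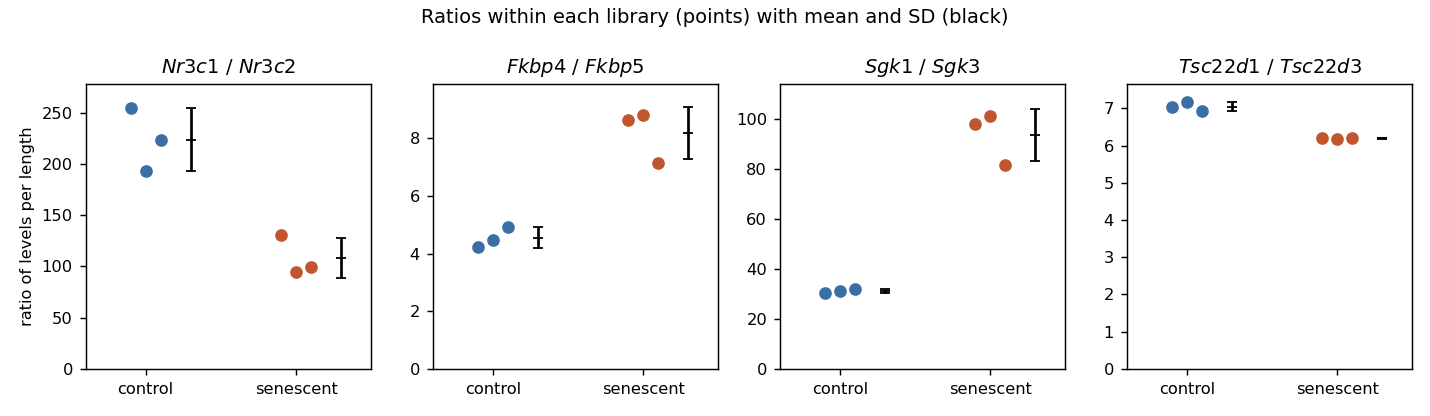
Ratio of the levels per length of 4 gene pairs in each library (points, control blue and senescent orange; vertical axes from 0) with the mean and SD of each group in black. *Nr3c1* over *Nr3c2* and *Tsc22d1* over *Tsc22d3* were lower, and *Fkbp4* over *Fkbp5* and *Sgk1* over *Sgk3* were higher, in senescent libraries, with no overlap between groups.

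Coactivators and corepressors of steroid receptors formed a further list. Of 23 genes, all tested, 11 were lower, 2 higher and 10 not called, with a median log2 fold change of -0.26 and 56.5% called, below the share over all tested genes. *Kat2b*, an acetyltransferase gene, fell from 32.8 ± 1.97 to 12.6 ± 1.64 CPM (SD, n = 3 per group) and was the 1 gene of the list called lower by more than 2-fold. *Ehmt1* (log2 fold change -0.73), *Smarcd1* (-0.88) and *Hdac3* (-0.47) followed by p-value. *Nrip1*, whose product represses nuclear receptors and is itself raised by several of them, was higher (log2 fold change 0.82). *Med14* was also called as higher (log2 fold change 0.26), but had an edgeR adjusted p of 0.0961 without control replicate 2 and 0.0872 without control replicate 3.

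A wider list held 44 other genes known to be raised by glucocorticoids in some cell type. Of the 43 tested, 25 were higher and 8 lower, and the median log2 fold change was 0.44 beside 0.01 for all tested genes. *Trim63* (2, 8 and 0 counts in control replicates 1, 2 and 3) and *Hif3a* (2, 2 and 3) passed the filter through the senescent libraries, so they could only be called higher. The share called was 76.7%, near the 70.3% of all tested genes, of which 36.2% were higher and 34.1% lower, so calls in both directions are not particular to this list. Among those higher, *Rgs2*, a brake on G protein signaling, rose from 9.84 ± 0.289 to 72.2 ± 6.70 CPM, *Tnfaip3*, which limits NF-κB, from 6.23 ± 0.270 to 32.3 ± 0.455 CPM, and *Pdk4*, which turns cells from glucose to fat oxidation, from 8.41 ± 0.205 to 48.3 ± 4.80 CPM (SD, n = 3 per group). *Ampd3* had a log2 fold change of 1.35. Among those lower, *Ddit4*, an inhibitor of mTOR signaling, was at 54.2, 61.4 and 61.2 CPM in control and 20.4, 21.0 and 21.0 CPM in senescent replicates 1, 2 and 3. *Glul* and *Klf15* had log2 fold changes of -0.42 and -0.84.

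*Per1*, the clock gene through which a glucocorticoid pulse acts on the circadian phase, was lower as well. It was at 25.1, 29.6 and 31.8 CPM in control replicates 1, 2 and 3 and at 14.1, 14.6 and 11.2 CPM in senescent replicates 1, 2 and 3. The groups were apart although the control values spread (log2 fold change -1.11, standard error 0.13, edgeR adjusted p = 0.000126). As a single time was sampled, a different level and a different phase of *Per1* cannot be told apart.

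Inflammatory and protease genes that glucocorticoids are known to hold down were listed as well. Of these 23 genes, 20 were tested, 19 were higher and 0 lower, where 36.2% of all tested genes were higher and 70.3% were called in either direction. *Csf2* (2, 1 and 0) and *Nos2* (2, 0 and 2) had few counts in control replicates 1, 2 and 3. So did *Cxcl2* (0, 4 and 3) and *Mmp13* (9, 6 and 6). All of these passed the filter through the senescent libraries, so they could only be called higher. *Csf3* (6, 11 and 8) and *Mmp9* (6, 26 and 18) also needed the senescent libraries to pass, which limits their calls in the same way. The list had a median log2 fold change of 2.85, or 2.48 when the genes with no more than 3 counts in any control library were set to the bound that 3 counts give. *Mmp3*, *Lif*, *Ccl2* and *Il11* had the smallest p-values, and their log2 fold changes were 5.51, 6.03, 2.73 and 4.88. *Cxcl5* was the 1 tested gene not called (log2 fold change -0.13, edgeR adjusted p = 0.371). *Il1a*, *Il1b* and *Tnf*, with at most 7 counts in any library, were below the filter. Many of these genes are also known as parts of the senescence-associated secretory phenotype, and the list cannot separate that programme from the hormone.

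**Figure D5:**
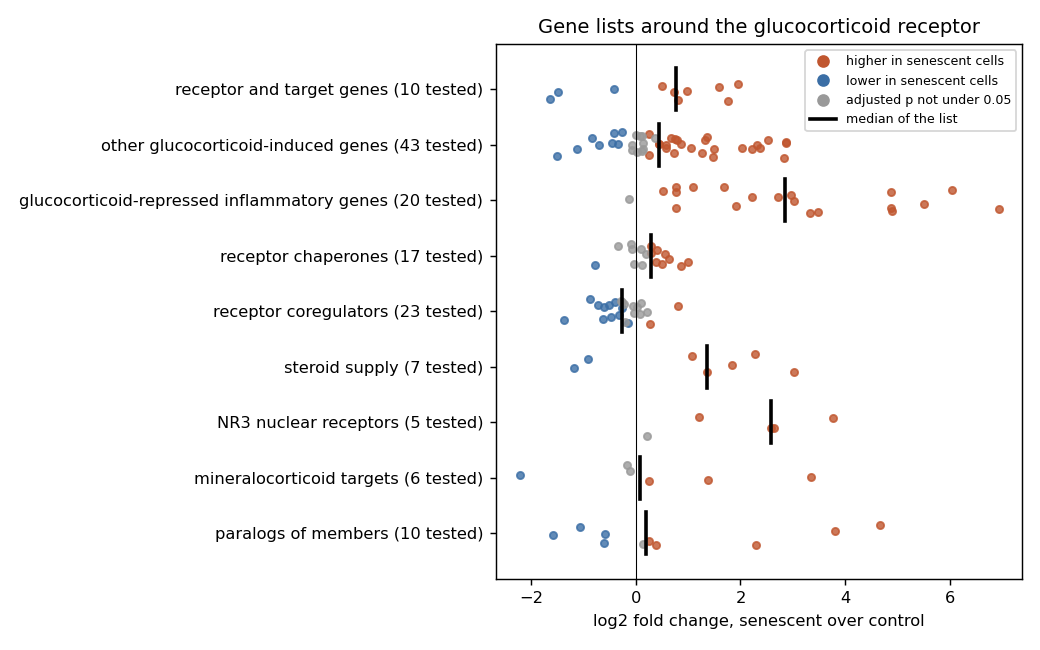
Log2 fold change of senescent over control cells (horizontal axis) for every tested gene of 9 lists, coloured orange when called higher, blue when called lower and grey when the adjusted p was not under 0.05, with the median of each list as a black bar. The medians run from -0.26 for the receptor coregulators to 2.85 for the inflammatory genes, and the receptor and target genes and the other induced genes hold points on both sides of 0.

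Estrogen receptor genes and, near the lower end of detection, the progesterone receptor gene were higher in senescent cells. They are relatives of the glucocorticoid receptor gene. Of the 7 other genes of the NR3 subfamily, 5 were tested and 4 were higher, as were 36.2% of all tested genes. *Esr1* went from 2.10 ± 0.431 to 4.84 ± 0.904 CPM and *Esr2* from 0.209 ± 0.0655 to 1.34 ± 0.249 CPM (SD, n = 3 per group). *Pgr* had 2, 0 and 0 counts in control and 13, 15 and 15 counts in senescent libraries. *Pgr* passed the filter through the senescent libraries, so it could only be called higher. *Esr2*, with 9, 17 and 8 counts in control libraries, also needed the senescent libraries to pass, which limits its call in the same way. The median log2 fold change of the tested genes was 2.58, or 1.81 with *Pgr* set to the bound that 3 counts give. *Esrra* was not called (log2 fold change 0.22, edgeR adjusted p = 0.492).

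Genes with patterns most like the receptor were found by Pearson correlation of log2(CPM + 0.1) over the 6 libraries, among the 12957 other tested genes whose mean count reached 100. For *Nr3c1* they were *Mex3c*, *Ccnt1* and *9830147E19Rik*, with coefficients of 1.00, 0.999 and 0.999, and for *Hsd11b1* they were *Ctla2a*, *4921536K21Rik* and *Anks1b*, with 0.999 each. Such values are common here because the 6 libraries form 2 groups, and 1946 genes had a coefficient over 0.95 with *Nr3c1* and 2669 with *Hsd11b1*. The coefficient also ignores the size of a difference. *Ctla2a*, *4921536K21Rik* and *Anks1b* had log2 fold changes of 5.97, 2.00 and 2.73, beside 0.81 for *Hsd11b1*. None had more than 64 counts in a control library, so they reached a mean count of 100 through the senescent libraries. *Ctla2a* had only 1, 3 and 5 counts in control replicates 1, 2 and 3. *Mex3c* shared with *Nr3c1* the high value in senescent replicate 3, at 121 CPM beside 99.4 and 98.5 CPM in senescent replicates 1 and 2.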

How the data were processed

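RNA-seq of 3 control and 3 senescent MAF samples was used. Paired-end reads had been aligned by the authors with STAR (build mm10, MAPRSeq pipeline) and assigned to genes with Subread. The deposited values are raw counts, with a length for each gene. The strand setting is not given in the sources used here. Groups and replicate numbers came from the sample titles. The members and gene lists were chosen with earlier results of these data known.

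From the deposited counts, 17589 genes passed filterByExpr. Genes low in control cells that passed it through the senescent libraries could only be called higher, in the lists and over all genes. Those low in senescent cells that passed it through the control libraries could only be called lower. TMM factors were computed, and the robust quasi-likelihood test of edgeR 4.0.16 (R 4.3.3, two-sided) was run with group as the only term. Adjustment was by Benjamini-Hochberg across every tested gene. Levels are TMM-scaled CPM; 1 count was worth 0.0118 to 0.0204 CPM, and a count of 0 allows 3 counts. Such limits cover counting error only. Named genes are all members, up to 4 genes per list and direction with the smallest p, *Hsp90aa1*, *Hsp90ab1*, *Fkbp4*, *Hsd11b2*, *H6pd*, *Per1*, and the 3 genes most like *Nr3c1* and *Hsd11b1*. The rule does not cover *Star*, *Cxcl5*, *Csf2*, *Csf3*, *Nos2*, *Cxcl2*, *Mmp9*, *Mmp13*, *Trim63*, *Hif3a*, *Esrra*, *Tsc22d2*, *Scnn1a* and genes named as below the filter, which were picked with their values in view. Some genes that the rule names are not reported here. One of 202 listed symbols (*Adgre1*) was matched by its identifier. Promoter sequences are from RefSeq (GRCm38.p6). Every pair of libraries within a group differed by more than counting noise, so none was treated as deposited again under another name; this does not show that they are separate cultures. The pipeline was tested on simulated data with far fewer changed genes than were called here, so that test does not cover scaling under so broad a difference.

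Alternatives were RLE scaling, library size alone, no filter beyond 1 count, at least 10 counts in every library, DESeq2 1.42.0, a replicate block and leaving out each library.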

Additional observations from a re-analysis of the deposited data

How the results depend on the processing

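All 10 members were called in the same direction under each of the 12 alternatives, with *Nr3c1* between 0.42 and 0.59 and *Fkbp5* between -1.68 and -1.56 on the log2 scale. The NR3 receptors went from 4 of 5 tested genes called to 2 of 3 when at least 10 counts were asked in every library, which left fewer genes to test, and *Med14* was lost without control replicate 2 or 3. Leaving out 1 library gave 11214 to 13695 called genes, and 3 to 5 NR3 receptors. Replicate numbers were shared between groups, and deviations of same-numbered libraries correlated at -0.145, 0.135 and -0.120. These weak values gave no sign that the numbers pair the samples, but they cannot exclude it. With a replicate block 11624 genes and all 10 members were called. Without a filter beyond 1 count 13739 genes were called, with DESeq2 12211. The median log2 fold change of all tested genes was 0.01 with TMM, 0.09 with library size alone and 0.31 without the filter, where genes with low counts are added. *Nr3c2* and *Zbtb16*, with at most 170 counts, are the members that depth limits most.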

Other observations

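Sodium transport genes that act downstream of the mineralocorticoid receptor were also listed. Of 9 genes, 6 were tested, 3 were higher, 1 was lower and 2 were not called, so that 66.7% were called, near the 70.3% of all tested genes, with a median log2 fold change of 0.08. *Atp1b1*, a sodium pump subunit gene, went from 4.63 ± 0.482 to 47.3 ± 5.12 CPM and the kinase gene *Wnk1* from 458 ± 17.1 to 1187 ± 105.6 CPM (SD, n = 3 per group). *Nedd4l*, whose product marks the sodium channel for removal, had a log2 fold change of 0.25. *Wnk4*, a relative of *Wnk1*, fell from 25.3 ± 1.11 to 5.45 ± 0.936 CPM. *Scnn1a*, a sodium channel subunit gene, was not called (log2 fold change -0.10, edgeR adjusted p = 0.506).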
